A study of Mus musculus with 4 samples.

Results

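Cluster 01 is 1 of 8 groups into which the authors divided single microglia of the mouse brain. The leading genes of the cluster include those of the immediate-early response. Its members were taken from the authors' annotation of cells, which places 435 of 3023 cells in it. They came from 4 libraries, each of cells pooled from 2 male mice aged 12 to 14 months. The cuprizone conditions were Trem2 -/- mice on 0.2% cuprizone (KO cuprizone, 122 of 885 cells), Trem2 +/- mice on 0.2% cuprizone (Het cuprizone, 108 of 802 cells) and Trem2 +/+ mice on 0.2% cuprizone (WT cuprizone, 94 of 765 cells). The remaining condition was Trem2 +/+ mice on the control diet (WT control, 111 of 571 cells). Every mouse had been on its diet for 12 weeks. Trem2 encodes a lipid-binding receptor of microglia, and cuprizone, fed to mice, damages oligodendrocytes and causes loss of myelin. The part of Trem2 deleted in the mutant mice is not given in the sources used here. Brains were dissociated with a commercial kit for adult brain, and live CD11b+ CD45low cells, the surface profile of microglia, were sorted, 30000 from each hemibrain. Libraries were made from the 3′ ends of RNA in droplets, and unique molecular identifiers (UMIs) count the captured molecules.

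Immediate-early genes are transcribed within minutes of a stimulus without new protein synthesis. Among them are the AP-1 subunits Fos and Jun, the EGR and KLF zinc-finger factors, and a layer of inhibitors such as Dusp1, Zfp36 and Nfkbia that shut the response down again. Their mRNAs are short-lived, in part because AU-rich elements in the 3′ untranslated region (UTR) recruit decay factors. In microglia they are known to respond to cytokines, to injury, to extracellular ATP and to the handling of tissue.

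The cells of cluster 01 were shallow. They held 1546328 UMIs in all, with a median of 3387 UMIs (range 1896 to 9847) and 1447 genes per cell, against medians of 3541 UMIs in cluster 06, 5817 in cluster 08, 7185 in cluster 05 and 16984.5 in cluster 02. Depth inside the cluster was alike between libraries, with medians of 3240.0 UMIs in KO cuprizone, 3487.5 in Het cuprizone, 3529.5 in WT cuprizone and 3412 in WT control. The cluster made up 13.8% of KO cuprizone cells (exact binomial 95% interval 11.6 to 16.2), 13.5% of Het cuprizone cells (11.2 to 16.03), 12.3% of WT cuprizone cells (10.04 to 14.8) and 19.4% of WT control cells (16.3 to 22.9). These intervals, like all others given here, cover counting error only. With 1 library per condition no test between conditions was possible. Of all cell barcodes, 8 occurred in more than 1 library, and 1 of the 16 cells that carried them lay in cluster 01.

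Each cell of cluster 01 was paired with a cell of the same library and nearly the same UMI total from clusters 02, 04, 05, 06 or 08. A partner was found for 434 of the 435 cells, and 298 partners came from cluster 06, 66 from cluster 08, 44 from cluster 05, 19 from cluster 04 and 7 from cluster 02. The median total was 3388 UMIs in cluster 01 and 3383 UMIs in the matched cells, and the median number of genes was 1448 in cluster 01 and 1418 in the matched cells. Levels are UMIs of a gene per 1000000 UMIs summed over a set of cells (CPM). The median share of ribosomal protein transcripts per cell was 8.82% in cluster 01 and 12.3% in matched cells. Mitochondrially encoded transcripts made up a median of 0.849% in cluster 01 and 1.11% in matched cells. Both shares moved with the results that follow, and their part in them was not tested.

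Cluster 01 was microglial by its markers. All 13 microglia markers passed the filter on low counts and none was called by the rule given below, a count near the share called over all genes. Their summed level was 51540 CPM in KO cuprizone, 53830 CPM in Het cuprizone, 54611 CPM in WT cuprizone and 55618 CPM in WT control cells of cluster 01, against 55647, 55750, 55708 and 61731 CPM in matched cells of the same libraries. Monocyte markers summed to between 4.78 and 20.6 CPM in the libraries of cluster 01, against 5.08 to 30.7 CPM in matched cells, with Ly6c2 and Fn1 at 0 UMIs in each library of the cluster. The list of border-associated macrophage markers summed to 152 to 186 CPM in cluster 01, against 153 to 211 CPM in matched cells, with Lyve1 and Clec12a at 0 UMIs throughout the cluster, and of its 3 tested members Ms4a7 was called lower. Neutrophil markers lay between 0 and 174 CPM in cluster 01, against 0 to 194 CPM in matched cells, and were at 0 in the WT control library. Oligodendrocyte markers summed to 122 to 194 CPM in cluster 01, against 137 to 282 CPM in matched cells, with Mog, Cldn11 and Ermn at 0 UMIs in the cluster. Astrocyte markers summed to 133 to 180.3 CPM in cluster 01, against 89.4 to 108 CPM in matched cells, with Aqp4 and Gja1 at 0 UMIs in the cluster, and the 1 member tested, the glutamate transporter gene Slc1a3, was called higher.

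Against matched cells, cluster 01 differed mainly by higher genes. A gene was called where the ratio of CPM was at least 1.5-fold in either direction, its exact conditional binomial 95% interval excluded 1, both sets together held at least 50 UMIs and the 4 libraries all moved the same way. By this rule 418 of 5864 genes were higher (7.13%) and 92 were lower (1.57%). The authors formed the clusters from the same counts, so these ratios describe the cluster and are no test of it. The median log2 ratio of all 5864 genes was 0.08. With scaling by trimmed mean of M values (TMM) in place of UMI totals, which moved log2 ratios by -0.10, 292 genes were higher and 228 lower. Higher genes were thus 82.0% of calls by UMI totals and 56.2% by TMM. The authors marked 4895 of the 12800 genes as analysed in their clustering. That mark covered 40.2% of the genes tested, 43.1% of the higher genes and 59.8% of the lower genes. It was absent from Fos, Jun, Egr1, Atf3, Dusp1, Nfkbia, Klf2 and Jund, and present for Junb, Ier2, Btg2 and Sgk1. On build GRCm38, the annotation places Fos (ENSMUSG00000021250) at chr12:85473890-85477273 on the plus strand, Jun (ENSMUSG00000052684) at chr4:95049034-95052222 on the minus strand, Btg2 (ENSMUSG00000020423) at chr1:134075170-134079120 on the minus strand and Sgk1 (ENSMUSG00000019970) at chr10:21882184-21999903 on the plus strand.

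**Figure D1:**
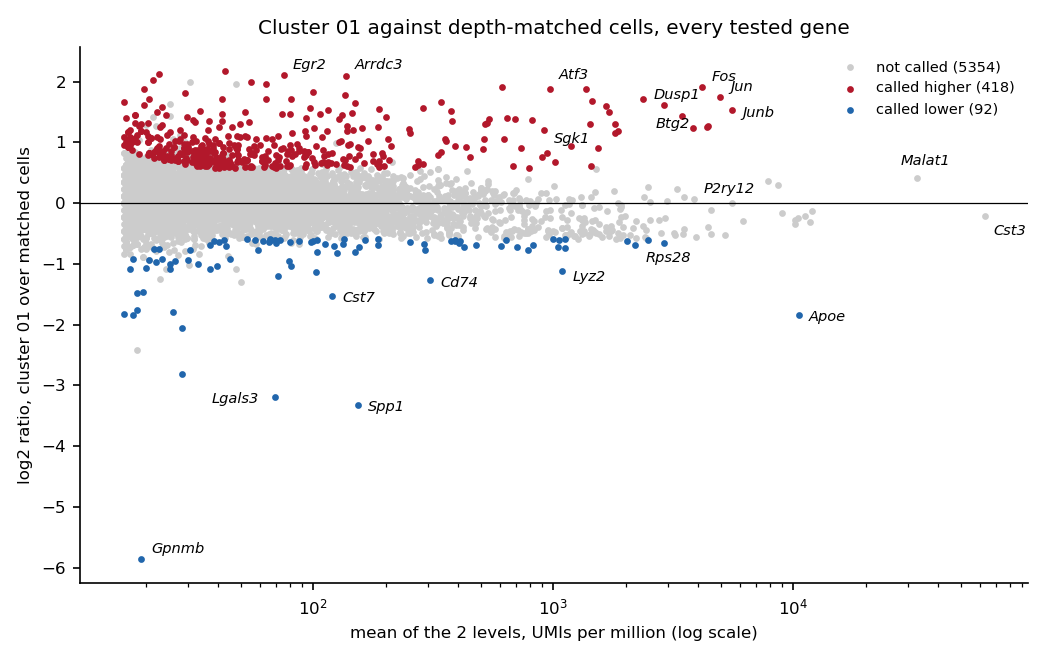
Ratio of cluster 01 to depth-matched cells (vertical axis, log2) against level (horizontal axis, CPM on a log scale) for the 5864 genes tested, one point a gene. The 418 higher and 92 lower genes are marked, with Fos, Jun and Junb high at high levels and Apoe low.

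Among the lists of pathway genes the 2 highest median ratios were close together. They were those of the AP-1 subunits, which pair to form the transcription factor AP-1, and of the EGR, NR4A, IER and KLF genes given next. Their order changed between libraries, with median log2 ratios of 1.43 and 1.66 in KO cuprizone but 1.97 and 1.74 in WT cuprizone. Of 13 listed subunits 12 were in the files and 8 passed the filter on low counts. Of those 8, 6 were higher and 0 lower, against 7.13% higher and 1.57% lower over all tested genes. Their median log2 ratio was 1.59. In this list and those that follow, a member can pass the filter through its UMIs in cluster 01 alone. Counts of higher members among those tested therefore have no weight of their own. Fos, the subunit best known as an activity marker, had 6015 in KO cuprizone, 6703 in Het cuprizone, 6777 in WT cuprizone and 6799 in WT control cells of cluster 01 (CPM), against 1638 in KO cuprizone, 1589 in Het cuprizone, 1609 in WT cuprizone and 2128 in WT control cells of the matched set. No library of the matched set came near the lowest library of cluster 01, and the ratio over all libraries was 3.76-fold (3.60 to 3.92). Jun, its main partner, had 7329 in KO cuprizone, 7961 in Het cuprizone, 8249 in WT cuprizone and 7037 in WT control cells of cluster 01 (CPM), against 2131 in KO cuprizone, 2151 in Het cuprizone, 2279 in WT cuprizone and 2499 in WT control matched cells, a ratio of 3.37-fold (3.24 to 3.497). Junb, a partner that restrains Jun in some settings, was 2.88-fold higher (2.78 to 2.98), with 7042 to 9113 CPM in the libraries of cluster 01 against 2583 to 3049 CPM in matched cells. Jund, the Jun family member present in resting cells, was 2.71-fold higher (2.59 to 2.83). Its level was highest in the KO cuprizone library of both sets, with 6242 CPM in cluster 01 and 2408 CPM in matched cells. Atf3, a stress-induced member of the wider family, had 1206 in KO cuprizone, 1518 in Het cuprizone, 1551 in WT cuprizone and 1862 in WT control cells of cluster 01 (CPM), against 332 in KO cuprizone, 488 in Het cuprizone, 338 in WT cuprizone and 500.3 in WT control matched cells. Its ratio was 3.68-fold (3.37 to 4.02), and again the libraries of the 2 sets did not overlap. Mafk, a small Maf protein, had a ratio of 2.45-fold (1.38 to 4.50) over 44 and 18 UMIs but did not move the same way in all libraries. Batf3, a subunit of dendritic cells, had a ratio of 1.14-fold (0.805 to 1.61).

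The other listed immediate-early genes moved the same way. Of 20 listed EGR, NR4A, IER and KLF genes 19 were in the files and 13 passed the filter. All 13 of these were higher, against 7.13% of all tested genes, with a median log2 ratio of 1.54. Egr1, a zinc-finger factor induced by growth factors and synaptic activity, had 1003 in KO cuprizone, 950.0 in Het cuprizone, 943 in WT cuprizone and 980.3 in WT control cells of cluster 01 (CPM), against 261 in KO cuprizone, 225 in Het cuprizone, 238 in WT cuprizone and 302 in WT control matched cells. Its level in cluster 01 was nearly the same in the 4 libraries, and the ratio was 3.77-fold (3.38 to 4.23). Egr2, a related factor required for peripheral myelin, was at 83.6 to 141 CPM in cluster 01, against 7.17 to 43.2 CPM in matched cells, a ratio of 4.30-fold (3.08 to 6.11). Ier2, a small nuclear protein, had 2090.2 in KO cuprizone, 2243 in Het cuprizone, 2191 in WT cuprizone and 2116 in WT control cells of cluster 01 (CPM), against 609.8 in KO cuprizone, 547 in Het cuprizone, 699 in WT cuprizone and 510.5 in WT control matched cells, a ratio of 3.67-fold (3.41 to 3.95). Klf2, a factor that quiets myeloid activation, was less even. It had 1808 in KO cuprizone, 3259.6 in Het cuprizone, 2156 in WT cuprizone and 2786 in WT control cells of cluster 01 (CPM), against 607 in KO cuprizone, 644 in Het cuprizone, 452 in WT cuprizone and 1549 in WT control matched cells, so that its ratio was 2.98 in KO cuprizone, 5.06 in Het cuprizone, 4.77 in WT cuprizone and 1.80 in WT control. Over all libraries Klf2 was 3.04-fold higher (2.85 to 3.24). The growth regulator Myc was 2.38-fold higher (1.65 to 3.502) and the survival factor Mcl1 2.28-fold (1.81 to 2.89).

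**Figure D2:**
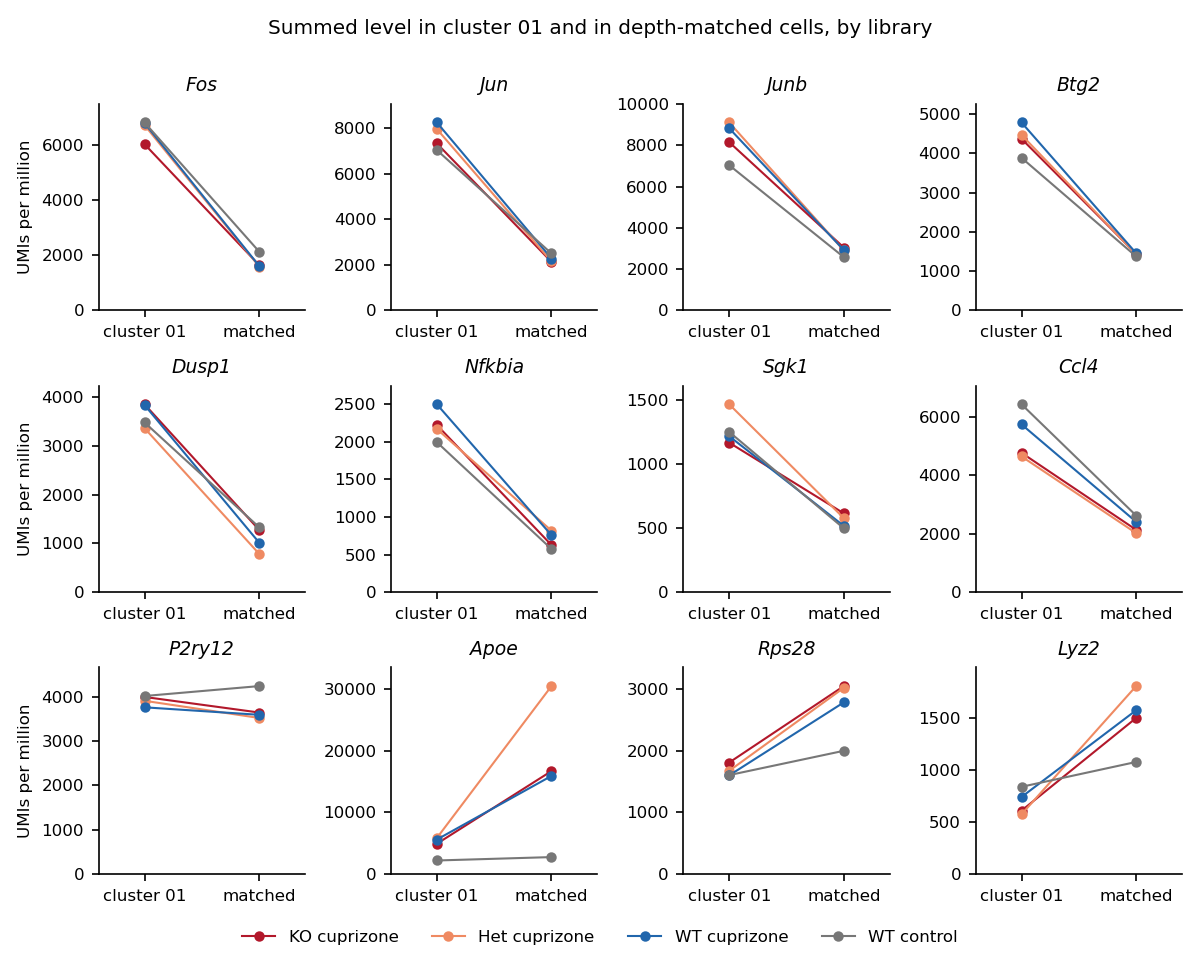
Levels (CPM, vertical axes from 0) of 12 genes in cluster 01 and in depth-matched cells, for the KO cuprizone, Het cuprizone, WT cuprizone and WT control libraries. For Fos, Jun, Junb, Btg2, Dusp1, Nfkbia, Sgk1 and Ccl4 each library of cluster 01 lies above all matched libraries, for Rps28 and Lyz2 below, P2ry12 overlaps, and Apoe is lower in cluster 01 by far more in the cuprizone libraries than in WT control.

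Genes listed as feedback regulators of signalling and mRNA decay were higher as well. Of 24 listed 23 were in the files and 18 passed the filter. Of these 16 were higher and 0 lower, with a median log2 ratio of 1.06. Btg2, an antiproliferative protein that brings the deadenylase complex to mRNAs, had 4367 in KO cuprizone, 4466 in Het cuprizone, 4782 in WT cuprizone and 3883 in WT control cells of cluster 01 (CPM), against 1439.7 in KO cuprizone, 1428 in Het cuprizone, 1456 in WT cuprizone and 1374 in WT control matched cells. The spread between libraries was small next to the difference between the sets, and the ratio was 3.06-fold (2.92 to 3.22). Dusp1, a phosphatase that switches off p38 and JNK kinases, had 3848 in KO cuprizone, 3359 in Het cuprizone, 3833 in WT cuprizone and 3477 in WT control cells of cluster 01 (CPM), against 1277 in KO cuprizone, 787 in Het cuprizone, 1016 in WT cuprizone and 1331 in WT control matched cells, a ratio of 3.27-fold (3.10 to 3.45). Zfp36 (tristetraprolin), which binds AU-rich elements and promotes the decay of cytokine mRNAs, was 2.47-fold higher (2.31 to 2.63), with 1839 to 2141 CPM in cluster 01 against 763 to 854 CPM in matched cells. Rhob, a small GTPase of endosomes, was 2.28-fold higher (2.15 to 2.41). Spry1, an inhibitor of receptor tyrosine kinase signalling, had 71.7 in KO cuprizone, 131 in Het cuprizone, 35.3 in WT cuprizone and 38.1 in WT control cells of cluster 01 (CPM), against 12.0 in KO cuprizone, 10.2 in Het cuprizone, 11.7 in WT cuprizone and 27.9 in WT control matched cells. Its ratio of 4.50-fold (2.87 to 7.33) rested on 108 and 24 UMIs. Arrdc3, an arrestin-like protein outside the list that was among the 12 leading higher genes, had a ratio of 4.29-fold (3.35 to 5.54), with 155 to 332 CPM in cluster 01 against 33.2 to 69.4 CPM in matched cells. The members not called were Rgs1, a G-protein regulator of microglia, at 1.45-fold (1.26 to 1.66), and the kinase Pim1 at 4.00-fold (2.40 to 7.01), whose libraries did not all move the same way.

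The annotated 3′ UTRs of the tested genes were searched for the core TATTTAT on the transcribed strand (GENCODE annotation, build GRCm38). It occurred at least once in 38.8% of the higher genes with an annotated 3′ UTR (157 of 405), in 13.8% of the lower genes (12 of 87) and in 27.0% of all tested genes (1555 of 5767). Among the tested immediate-early genes, those of the AP-1 list and of the EGR, NR4A, IER and KLF list, 11 of 21 held it. Among the feedback genes 13 of 18 did. The 3′ UTRs were also of unequal length, with medians of 1228 bases for higher genes, 317 bases for lower genes and 1013 bases for all tested genes. Per kilobase of 3′ UTR the core occurred 0.386 times in higher genes, 0.228 times in lower genes and 0.272 times in all tested genes. It occurred 0.715 times in the immediate-early genes and 1.04 times in the feedback genes. The sites below are shown because they belong to the genes that lead the cluster, and capitals mark the core.
Fos, chr12:85477107-85477127, plus strand: ttcaattTATTTATtaagatg
Jun, chr4:95049083-95049103, minus strand: ttgtgcaTATTTATaatagcg
Atf3, chr1:191170342-191170362, minus strand: tattactTATTTATcccagta
Btg2, chr1:134077253-134077273, minus strand: gaagagcTATTTATacatgtt
Dusp1, chr17:26506163-26506183, minus strand: tggtcctTATTTATttaacac
Nfkbia, chr12:55489612-55489632, minus strand: cacgtttTATTTATtgtgctt
Sgk1, chr10:21999639-21999659, plus strand: cgggcatTATTTATgtttttt
Fos and Nfkbia each hold 2 such cores in the 3′ UTR and Dusp1 holds 3, of which the site nearest the coding sequence is printed, and the other genes shown hold 1. No such core was found in the annotated 3′ UTRs of Junb and Ier2. Most of these genes are compact. The median number of exons was 3 for the immediate-early genes and 2 for the feedback genes, against 8 for all tested genes.

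In the 250 bases before the RefSeq gene start (assembly GRCm38.p6), the palindromic cyclic AMP response element TGACGTCA, searched on both strands, was found in 5.62% of higher genes with a promoter in the table (19 of 338), in 3.28% of all tested genes (154 of 4689) and in 1.77% of all genes with a promoter (478 of 27025). It was in 1.49% of lower genes (1 of 67), in 9.84% of cytosolic ribosomal protein genes (6 of 61) and in 1 of 25 listed AP-1, EGR, NR4A, IER and KLF genes, but in 0 of the 15 of those genes that were higher. It was 1 of 6 motifs searched there. The EGR motif GCGNGGGCG was in 15.7% of higher genes against 10.8% of all tested genes, the TATA motif TATAAA in 11.5% against 7.81%, and the AP-1 motif TGANTCA in 4.73% against 5.16%. The serum response element was in 1.48% of higher genes against 1.39% of all tested genes, and the heat shock element in 0.888% against 0.491%. The windows of Btg2 and Dusp1 are shown because both genes lead the cluster and hold the cyclic AMP response element, which is in capitals. Both genes lie on the minus strand, and each window ends 1 base before the gene start.
Btg2 promoter, chr1:134079156-134079405, minus strand: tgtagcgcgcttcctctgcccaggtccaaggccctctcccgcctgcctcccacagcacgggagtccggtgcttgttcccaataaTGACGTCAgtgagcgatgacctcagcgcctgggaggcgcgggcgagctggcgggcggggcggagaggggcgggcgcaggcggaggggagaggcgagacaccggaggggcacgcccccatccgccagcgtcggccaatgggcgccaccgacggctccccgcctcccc
Dusp1 promoter, chr17:26508473-26508722, minus strand: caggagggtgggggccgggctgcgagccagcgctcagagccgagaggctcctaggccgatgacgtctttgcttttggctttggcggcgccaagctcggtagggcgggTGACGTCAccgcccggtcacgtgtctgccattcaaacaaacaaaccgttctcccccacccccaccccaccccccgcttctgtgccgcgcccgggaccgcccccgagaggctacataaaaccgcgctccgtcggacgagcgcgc
In Btg2 the element lies 166 to 159 bases before the start, and in Dusp1 143 to 136 bases before it. A match in these letters is a description of the window and not a bound site.

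Genes of the NF-kB pathway were higher in part. NF-kB is the factor that carries signals of cytokines and microbial products to the nucleus, and its inhibitors are among its own targets. Of 21 listed members 20 were in the files and 18 passed the filter, and 10 of these were higher and 0 lower, with a median log2 ratio of 0.92. Nfkbia, the inhibitor that holds NF-kB in the cytoplasm, had 2222 in KO cuprizone, 2169 in Het cuprizone, 2497 in WT cuprizone and 1994 in WT control cells of cluster 01 (CPM), against 627 in KO cuprizone, 817 in Het cuprizone, 758 in WT cuprizone and 574 in WT control matched cells. Its ratio was 3.20-fold (2.99 to 3.43) with no overlap between libraries. Tnfaip3 (A20), a ubiquitin editor that limits the pathway, was 2.40-fold higher (1.94 to 2.98), the adhesion molecule Icam1 2.38-fold (1.98 to 2.86) and the activation marker Cd83 2.58-fold (2.36 to 2.81). The subunit gene Nfkb2 had a ratio of 1.12 (0.634 to 1.97), and the anti-apoptotic genes Bcl2a1b and Bcl2a1d, near-identical copies whose reads cannot be told apart with certainty, had ratios of 1.04 (0.939 to 1.16) and 0.675 (0.505 to 0.899). The others called higher were the inhibitor genes Nfkbid, Nfkbie and Nfkbiz, the subunit genes Rel and Relb, and Tnfaip2, while the subunit genes Nfkb1 and Rela were not called.

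Among 21 listed cytokines and chemokines, all in the files, 15 passed the filter, and 5 of these were higher and 0 lower, with a median log2 ratio of 0.99. Ccl4, a chemokine that attracts T cells and monocytes, had 4768 in KO cuprizone, 4645 in Het cuprizone, 5739.9 in WT cuprizone and 6428 in WT control cells of cluster 01 (CPM), against 2133 in KO cuprizone, 2020.4 in Het cuprizone, 2408 in WT cuprizone and 2621 in WT control matched cells. It was 2.35-fold higher (2.26 to 2.44), and its neighbour Ccl3 was 2.48-fold higher (2.34 to 2.63), with 2151 to 3093 CPM in cluster 01 against 766 to 1201 CPM in matched cells. Tnf, a central inflammatory cytokine, had 103 in KO cuprizone, 136 in Het cuprizone, 288 in WT cuprizone and 119 in WT control cells of cluster 01 (CPM), against 38.3 in KO cuprizone, 61.3 in Het cuprizone, 35.2 in WT cuprizone and 40.6 in WT control matched cells, a ratio of 3.55-fold (2.70 to 4.71). The libraries did not overlap, although Tnf was low in both sets. The interleukin Il1a was 2.96-fold higher (2.54 to 3.46), with 343 to 508 CPM in cluster 01 against 94.5 to 198 CPM in matched cells. Cxcl10, an interferon-induced chemokine, had 71.7 in KO cuprizone, 35.8 in Het cuprizone, 206 in WT cuprizone and 7.62 in WT control cells of cluster 01 (CPM), against 9.57 in KO cuprizone, 7.66 in Het cuprizone, 5.87 in WT cuprizone and 53.3 in WT control matched cells. Its ratio of 3.90 (2.59 to 6.04) was not called, because the WT control library moved the other way. A single cell held 41.9% of its UMIs in the cluster. Ccl6, a chemokine also counted among the genes of disease-associated microglia, had a ratio of 0.675 (0.591 to 0.772).

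Sgk1 and other genes that glucocorticoids induce were higher. Of 18 listed 17 were in the files and 14 passed the filter, and 10 of these were higher and 0 lower, with a median log2 ratio of 0.94. Dusp1, described above, belongs to this list too. Sgk1, a kinase that regulates ion channels and transporters under hormonal and osmotic control, had 1166 in KO cuprizone, 1465 in Het cuprizone, 1216 in WT cuprizone and 1249 in WT control cells of cluster 01 (CPM), against 615 in KO cuprizone, 577 in Het cuprizone, 517 in WT cuprizone and 498 in WT control matched cells. The ratio was 2.30-fold (2.12 to 2.50), smaller than that of Fos or Jun but with the libraries of the 2 sets again apart. Tsc22d3 (GILZ), a leucine zipper protein that mediates glucocorticoid effects, had 690.4 in KO cuprizone, 566 in Het cuprizone, 473 in WT cuprizone and 472 in WT control cells of cluster 01 (CPM), against 287 in KO cuprizone, 125 in Het cuprizone, 159 in WT cuprizone and 196 in WT control matched cells, a ratio of 2.86-fold (2.50 to 3.27). Errfi1, an inhibitor of the EGF receptor, was 2.77-fold higher (1.85 to 4.22) and the factor Cebpb 1.88-fold (1.72 to 2.05). The glucocorticoid receptor gene Nr3c1 had a ratio of 1.0004 (0.795 to 1.26), and the metallothionein Mt1, another hormone-responsive gene, a ratio of 1.0997 (0.965 to 1.25).

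The other stress programmes were mixed. Of 17 heat shock chaperones, all in the files, 12 passed the filter, and 2 were higher and 0 lower, with a median log2 ratio of 0.27. Dnajb1, a co-chaperone of Hsp70, was 3.45-fold higher (2.73 to 4.39), with 138 to 271 CPM in cluster 01 against 40.9 to 91.4 CPM in matched cells, and Dnajb4 was 1.82-fold higher (1.17 to 2.87). Hspa1a, the classic inducible Hsp70 and a near-identical copy of Hspa1b, had 184 in KO cuprizone, 589 in Het cuprizone, 112 in WT cuprizone and 147 in WT control cells of cluster 01 (CPM), against 71.7 in KO cuprizone, 347 in Het cuprizone, 79.3 in WT cuprizone and 147 in WT control matched cells. Its ratio of 1.61 (1.37 to 1.89) was not called, since the WT control library had 147 CPM in cluster 01 and 147 CPM in matched cells, and the Het cuprizone library was the highest in both sets. The mitochondrial chaperones Hspd1 and Hspe1 had ratios of 0.742 (0.561 to 0.980) and 0.774 (0.657 to 0.911). Of the unfolded protein and integrated stress response, 19 of 20 listed genes were in the files and 14 passed the filter, with 4 higher, 0 lower and a median log2 ratio of 0.15. Those 4 were the transcription factor Atf4 (2.17-fold, 1.68 to 2.81), its target Ddit3 (CHOP; 2.76-fold, 2.07 to 3.71), the membrane protein Herpud1 (2.07-fold, 1.82 to 2.36) and the chaperone Hspa5 (1.52-fold, 1.39 to 1.67). The folding enzymes Pdia3 and Pdia6 had ratios of 0.974 (0.894 to 1.06) and 0.955 (0.850 to 1.07).

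Of 19 genes of the p53 and DNA damage response 18 were in the files and 13 passed the filter, and 6 were higher and 0 lower, with a median log2 ratio of 0.66. They included the cell cycle inhibitor Cdkn1a (p21; 2.78-fold, 2.17 to 3.60), the kinase Plk3 (2.76-fold, 2.04 to 3.76) and the pro-apoptotic Bbc3 (PUMA; 2.16-fold, 1.49 to 3.18). Trp53 itself had a ratio of 1.14 (0.920 to 1.41) and its target Bax one of 1.03 (0.865 to 1.23). Of 16 oxidative stress genes 12 passed the filter, and the 2 higher ones were the haem oxygenase Hmox1 (1.63-fold, 1.20 to 2.21) and the autophagy receptor Sqstm1 (1.52-fold, 1.25 to 1.86), with a median log2 ratio of 0.14 over the list. The peroxidase Prdx1 had a ratio of 0.695 (0.616 to 0.784) and the ferritin chain Fth1 one of 0.707 (0.683 to 0.731), and neither was called.

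Some RNA-processing genes were higher too. All 22 listed splicing and RNA-binding proteins passed the filter, and 7 were higher and 0 lower, with a median log2 ratio of 0.51. The kinase Clk1, which phosphorylates splicing factors, was 2.08-fold higher (1.76 to 2.47), with 241 to 307 CPM in cluster 01 against 117 to 170.2 CPM in matched cells. The helicase Ddx5 was 1.61-fold higher (1.49 to 1.73) and the splicing activator Tra2a 1.79-fold (1.403 to 2.30). Of 10 listed nuclear-retained RNAs 8 were in the files and 4 passed the filter, and the 2 higher ones were Neat1, the scaffold RNA of paraspeckles (1.72-fold, 1.46 to 2.04), and Mir142hg, the host RNA of a blood-cell microRNA (2.12-fold, 1.16 to 4.02). Malat1, an abundant RNA of nuclear speckles, had 37083 in KO cuprizone, 38938 in Het cuprizone, 37538 in WT cuprizone and 37111 in WT control cells of cluster 01 (CPM), against 23992 in KO cuprizone, 27946 in Het cuprizone, 27707 in WT cuprizone and 32948 in WT control matched cells. Its ratio of 1.34 (1.32 to 1.36) fell short of 1.5-fold although the libraries did not overlap. For the cluster as a set, higher levels of nuclear RNAs went with lower median shares of ribosomal protein and mitochondrially encoded transcripts. Whether they went together cell by cell, and the part of RNA quality in this, was not tested.

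No gene of the homeostatic programme of microglia was called. Of 22 listed genes 21 passed the filter, and 0 were higher and 0 lower. Their median log2 ratio was 0.06 by UMI totals and -0.05 by TMM, so its sign depends on the scaling, and their summed level was 97889 CPM in cluster 01 and 106330.0 CPM in matched cells. P2ry12, the purinergic receptor that senses ATP, had 3994 in KO cuprizone, 3907 in Het cuprizone, 3760.0 in WT cuprizone and 4015 in WT control cells of cluster 01 (CPM), against 3642 in KO cuprizone, 3519.8 in Het cuprizone, 3591 in WT cuprizone and 4239 in WT control matched cells. These ranges overlapped, and the ratio was 1.05 (1.01 to 1.08). Tmem119, a marker that separates microglia from other macrophages, had a ratio of 1.21 (1.15 to 1.26). Of 16 transcription factors and receptors of microglial identity 15 passed the filter, and 2 were higher and 0 lower. Among them was Cebpa, a factor of the myeloid lineage (1.92-fold, 1.70 to 2.16). Sall1, Spi1 and Irf8, which define the lineage, had ratios of 1.24 (0.985 to 1.57), 1.15 (1.04 to 1.26) and 1.32 (1.22 to 1.43). Complement, lysosome and glycolysis lists had 0 higher and 0 lower members, of 8, 24 and 12 tested. Over all 5864 tested genes 7.13% were higher and 1.57% lower. Counts of 0 in lists of this size, the homeostatic list included, are therefore near the background.

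Among the lower genes were several of disease-associated microglia (DAM), a state that microglia enter around plaques and damaged myelin. Among 9 TREM2-independent DAM genes, all tested, 0 were higher and 3 lower, and the median log2 ratio was -0.50. Apoe, the main apolipoprotein of the brain, had 4916 in KO cuprizone, 5848 in Het cuprizone, 5596 in WT cuprizone and 2197 in WT control cells of cluster 01 (CPM), against 16715 in KO cuprizone, 30511 in Het cuprizone, 15926 in WT cuprizone and 2748 in WT control matched cells. The gap was wide in the 3 cuprizone libraries and narrow in WT control, whose matched cells lay below the cuprizone libraries of cluster 01, and over all libraries Apoe was 3.58-fold lower (3.48 to 3.67). Lyz2, the macrophage lysozyme, had 609 in KO cuprizone, 574 in Het cuprizone, 740.3 in WT cuprizone and 838 in WT control cells of cluster 01 (CPM), against 1499.5 in KO cuprizone, 1806 in Het cuprizone, 1574 in WT cuprizone and 1077 in WT control matched cells, and was 2.16-fold lower (2.01 to 2.33). Timp2, an inhibitor of metalloproteases, was 1.71-fold lower (1.58 to 1.86). Among 17 TREM2-dependent DAM genes 16 were tested, and 0 were higher and 3 lower, with a median log2 ratio of -0.28. Cst7, an inhibitor of lysosomal proteases, was 2.87-fold lower (2.27 to 3.67) and the tetraspanin Cd63 1.66-fold lower (1.55 to 1.78). Spp1 (osteopontin), a secreted matrix protein, had 4.78 in KO cuprizone, 53.8 in Het cuprizone, 47.0 in WT cuprizone and 10.2 in WT control cells of cluster 01 (CPM), against 9.57 in KO cuprizone, 447 in Het cuprizone, 711 in WT cuprizone and 20.3 in WT control matched cells, and was 9.97-fold lower (7.28 to 14.0). A single matched cell held 29.4% of the 429 matched UMIs of Spp1.

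Of 16 further disease-associated genes only 7 passed the filter, and 0 were higher and 4 lower. Lgals3 (galectin-3), a lectin of phagocytes, was 9.14-fold lower (5.81 to 15.1), with 5.08 to 23.5 CPM in cluster 01 against 48.3 to 278 CPM in matched cells. Gpnmb, a glycoprotein of lipid-laden macrophages, had 1 UMI in cluster 01 and 58 UMIs in matched cells, a ratio of 0.0172 (0.000429 to 0.09997), and 36.2% of the matched UMIs lay in 1 cell. A member of this set can pass the filter through the matched cells alone, so the count of lower genes among those tested has no weight of its own. Of 7 MHC class II genes, which present antigen to T cells, 6 passed the filter and 3 were lower. Cd74, the invariant chain, was 2.41-fold lower (2.096 to 2.79), with 57.3 to 379 CPM in cluster 01 against 177 to 699 CPM in matched cells, and H2-Ab1 was 2.04-fold lower (1.55 to 2.69). H2-Aa had a ratio of 0.470 (0.325 to 0.671) and did not move the same way in all libraries. Anxa5, which binds phosphatidylserine, was 2.19-fold lower (1.72 to 2.81), and the calcium-binding S100a13 2.28-fold lower (1.70 to 3.09). In 14 tested interferon response genes 2 were lower, Ifitm3, a restriction factor of virus entry, by 1.59-fold (1.27 to 1.99) and Ifi27l2a by 1.76-fold (1.42 to 2.18). The median log2 ratio of these 14 was 0.01 by UMI totals and -0.09 by TMM.

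Some genes of protein synthesis and respiration were lower, each by a small amount. All 83 listed cytosolic ribosomal protein genes were in the files and 82 passed the filter, and 12 were lower and 0 higher, with a median log2 ratio of -0.49. Rps28, a protein of the small ribosomal subunit, had 1806 in KO cuprizone, 1672 in Het cuprizone, 1598 in WT cuprizone and 1602 in WT control cells of cluster 01 (CPM), against 3044 in KO cuprizone, 3017 in Het cuprizone, 2781 in WT cuprizone and 1996 in WT control matched cells, and was 1.62-fold lower (1.54 to 1.70). In matched cells it was lowest in WT control, and even that library exceeded the highest library of cluster 01. Rpl38 was 1.64-fold lower (1.53 to 1.76) and Rps21 1.63-fold (1.49 to 1.79). Of 76 tested nuclear subunits of the respiratory chain 12 were lower and 0 higher, with a median log2 ratio of -0.40, among them Ndufa1 of complex I (1.74-fold lower, 1.44 to 2.12). None of 12 mitochondrially encoded transcripts was called, a count near the share over all genes, and their median log2 ratio was -0.30. Of 18 translation factors 1 was called, the initiation factor Eif5, which was 1.66-fold higher (1.36 to 2.04), while the elongation factor Eef1a1 had a ratio of 0.761 (0.723 to 0.801). Of 6 tested cell cycle genes the chromatin protein Hmgb2 was 2.03-fold higher (1.69 to 2.45) and the replication clamp Pcna had a ratio of 0.879 (0.643 to 1.20).

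**Figure D3:**
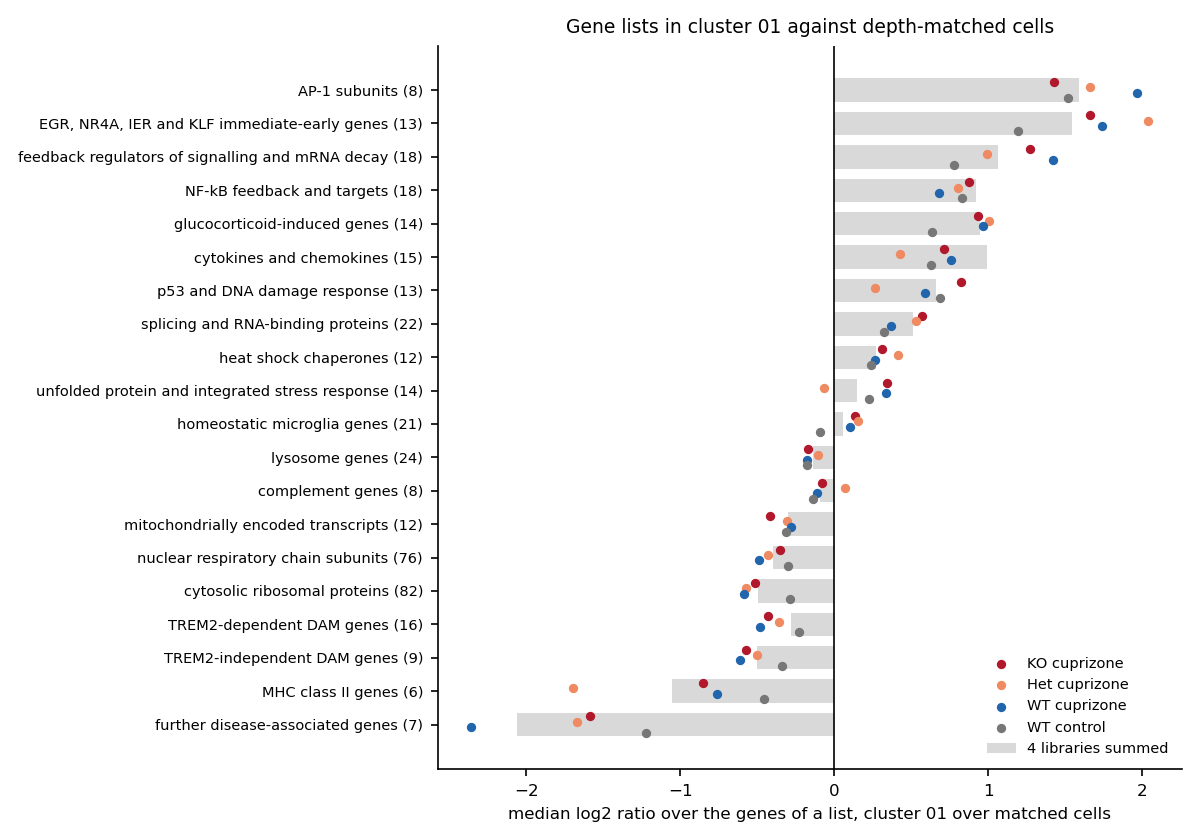
Median log2 ratio of cluster 01 to depth-matched cells (horizontal axis) for 20 gene lists. Bars give the 4 libraries summed and dots the single libraries, and the lists run from AP-1 subunits at 1.59 to further disease-associated genes at -2.06, with homeostatic genes at 0.06.

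The matched cells mix clusters that differ among themselves, and cluster 01 stood differently to each. By its whole profile it was most like cluster 05, with a Pearson correlation of log2 levels over 8017 genes of 0.986, then cluster 06 at 0.968, cluster 08 at 0.964 and cluster 02 at 0.963. These correlations describe genes within the same libraries, and genes are not independent replicates. Cluster 06 has nearly the same depth as cluster 01. Against cluster 06 alone, with 399 pairs, 438 of 5636 genes were higher (7.77%) and 108 lower (1.92%). Fos was then 8.34-fold higher (7.84 to 8.88), Btg2 4.84-fold (4.56 to 5.14) and Ccl4 5.15-fold (4.87 to 5.44). Of the AP-1 subunits 7 of 8 tested were higher, of the EGR, NR4A, IER and KLF genes 13 of 13, and of the feedback genes 17 of 17. Apoe had a ratio of 0.760 (0.736 to 0.784) and no MHC class II gene of 5 tested was called. Of the TREM2-independent DAM genes 3 of 9 were still lower, and of the TREM2-dependent ones 2 of 16 were lower and 1 higher. Spp1 had a ratio of 0.461 (0.309 to 0.677).

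Against cluster 05 alone the difference was small in the pairs that could be matched, and wider over more cells at equal depth, as given below. Only 108 pairs could be formed, from the deeper cells of cluster 01, with medians of 4528 UMIs in cluster 01 and 4568 UMIs in cluster 05. Of 2866 genes 85 were higher (2.97%) and 31 lower (1.08%). Fos had a ratio of 1.26 (1.20 to 1.33), Btg2 1.38 (1.30 to 1.48) and Sgk1 1.28 (1.12 to 1.46), none of which reached 1.5-fold. Jun stood at 1.4998 (1.43 to 1.58), and Klf2 was on the other side at 0.843 (0.772 to 0.920). No AP-1 subunit of 6 tested and no feedback gene of 14 was called, while 2 of 12 EGR, NR4A, IER and KLF genes were higher, with a median log2 ratio of 0.47. Of the other genes named above as higher, Dnajb4 and Sqstm1 also had ratios under 1 against cluster 05. Of those named as lower, Apoe, Cd63, Cd74 and Ifitm3 had ratios over 1. Mir142hg, Spp1 and Gpnmb were among the genes under the filter of 50 UMIs there, so their ratios show no direction. For Spp1 the ratio was 2.17 with an interval of 0.886 to 5.80. Of the NF-kB list 5 of 12 were higher, of the cytokines 3 of 14 and of the p53 genes 2 of 8, and 3 of 82 ribosomal protein genes and 3 of 73 respiratory chain genes were lower. The ratio of Rps28 was 0.687 (0.628 to 0.752), close to its 0.684 (0.649 to 0.721) against cluster 06, while Apoe stood at 1.14 (1.08 to 1.20). Without matching for depth, against all cells of the 5 clusters, Fos was 2.29-fold higher (2.25 to 2.34) and Jun 2.37-fold (2.33 to 2.42), while Mcl1 stood under 1.

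To set all 8 clusters side by side, each cell was thinned to 2500 UMIs, which kept 393 of the 435 cells of cluster 01 and left out 42. Between 0 and 49 cells were left out of each other cluster. The share of a cell's UMIs that fell on the 31 AP-1, EGR, NR4A, IER and KLF genes had a median of 3.88% in cluster 01. It was 2.60% in cluster 05, 2.40% in cluster 07, 2.32% in cluster 02, 1.56% in cluster 08, 1.36% in cluster 04, 0.56% in cluster 06 and 0.32% in cluster 03. Without thinning the median was 3.86% in cluster 01, 2.61% in cluster 05 and 0.514% in cluster 06, in the same order. The share varied widely between cells of cluster 01, from 2.12% at the 10th percentile to 5.84% at the 90th. At or above that lower value lay 90.1% of cells in cluster 01, 68.6% in cluster 05, 65.1% in cluster 02, 62.2% in cluster 07, 34.5% in cluster 08, 17.99% in cluster 04, 7.02% in cluster 03 and 4.94% in cluster 06. Most cells of clusters 02, 05 and 07 thus reached the range of cluster 01. Its median by library was 3.68% in KO cuprizone, 4.36% in Het cuprizone, 4.20% in WT cuprizone and 3.48% in WT control.

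**Figure D4:**
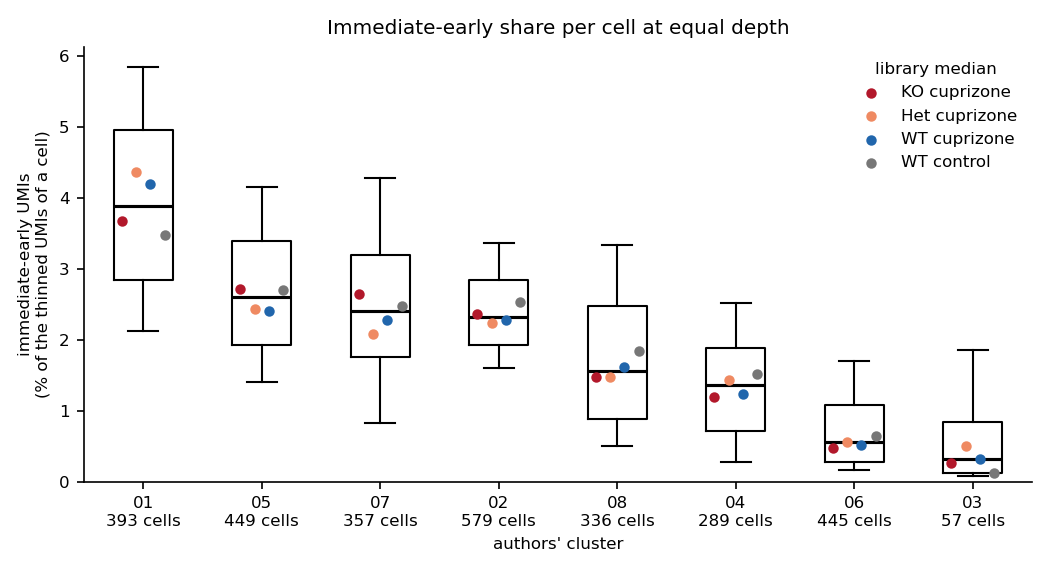
Share of UMIs on 31 immediate-early genes per cell (vertical axis, percent), each cell thinned to 2500 UMIs, for the 8 clusters. Boxes span the 25th to 75th percentiles, whiskers the 10th to 90th, lines mark medians and dots the medians of single libraries. Cluster 01 has the highest median, 3.88%, and its whiskers, from 2.12% to 5.84%, overlap those of clusters 02, 04, 05, 07 and 08 but not those of clusters 03 and 06.

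In thinned cells Fos averaged 6696 CPM over the 4 libraries of cluster 01, against 4714 CPM in cluster 07 and 4077 CPM in cluster 05. Jun averaged 7782 CPM in cluster 01, against 4653 CPM in cluster 05 and 3827 CPM in cluster 07. Btg2 averaged 4428 CPM in cluster 01 and 2818 CPM in cluster 05, and Sgk1 1315 and 750 CPM. Klf2 averaged 2586 CPM in cluster 01 and 1910 CPM in cluster 05, the other direction from that in the 108 pairs. These means cover 393 cells of cluster 01 and 449 of cluster 05, while the pairs held only deeper cells of cluster 01. The lowest library of cluster 01, at 6108 CPM for Fos and 6915 CPM for Jun, exceeded all libraries of all other clusters, whose highest values were 5354 CPM for Fos and 4803 CPM for Jun. The same was done for 25 genes, most of them chosen because they lead the cluster, so their count says nothing of other genes. Cluster 01 had the highest mean for 19 of them, and for 10 of these no library of another cluster reached its lowest library. Jund, Egr1, Klf2, Ccl3, Ccl4, Il1a, Tsc22d3, Dnajb1 and Btg1 overlapped. The lowest library of cluster 01 had 1693 CPM of Klf2, for example, against 2923 CPM in the highest library of another cluster. That was WT control in cluster 08, a sum over only 13 cells, and the cuprizone libraries of cluster 08 had 821 to 903 CPM. The value of 5354 CPM for Fos came from the same 13 cells. The other 6 of the 25 genes were Tnf and Apoe, highest in cluster 04, Hspa1a, highest in cluster 07, P2ry12 and Trem2, highest in cluster 06, and Rps28, highest in cluster 02. For Apoe cluster 01 was the lowest of the 8, with cluster 05 next, although Apoe lay above cluster 05 in the matched pairs.

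Cells of cluster 01 varied in their counts of these genes. In the 393 thinned cells Fos had a median of 15 UMIs and a maximum of 60, Jun a median of 18 and a maximum of 51, and Junb a median of 20 and a maximum of 61. Klf2, Ccl3 and Ccl4 were concentrated in fewer cells. Klf2 had a median of 2 UMIs and a maximum of 84, Ccl3 a median of 1 and a maximum of 80.0, and Ccl4 a median of 3 and a maximum of 119. The variance divided by the mean was 32.1 for Ccl4, 17.0 for Ccl3 and 14.7 for Klf2, against 5.14 for Jun and 3.49 for Btg2. Over the 91 pairs of 14 such genes the Pearson correlation between cells ranged from -0.174 to 0.574, with a median of 0.0971. The highest was that of the neighbouring chemokine genes Ccl3 and Ccl4. Such correlations describe sparse counts of cells that share libraries, and the low median is no finding about shared control. Across the 32 sums of 8 clusters by 4 libraries, the genes whose log2 level followed that of Jun most closely were Btg2 (Pearson correlation 0.963), Clk1 (0.943), Ier5 (0.939), Rhob (0.930) and Zfp36 (0.921), out of 7706 genes.

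Within cluster 01 the 4 libraries were compared next. Levels are here over all 435 cells, so they can differ slightly from those of the 434 matched cells. Trem2 served as the check of the genotypes. Its level was 413 CPM in KO cuprizone, 1488 CPM in Het cuprizone, 2702 CPM in WT cuprizone and 2999 CPM in WT control cells of cluster 01. It was 6.55-fold lower in KO cuprizone than in WT cuprizone (5.56 to 7.74), and in cluster 06 the ratio was 0.163 (0.142 to 0.187). The remaining 3′ reads in the knockout check only that the locus was still transcribed, since the deleted part is not given. In Het cuprizone the ratio to WT cuprizone was 0.550 (0.495 to 0.611). The order of these 3 cuprizone libraries was that of the number of intact Trem2 copies in the labels, and WT cuprizone lay at 0.901 of WT control (0.826 to 0.983).

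For the immediate-early genes themselves, the rule between libraries asked for a 2-fold difference in either direction, 50 UMIs or more in the pair and an interval clear of 1. None of 6 AP-1 subunits and none of 11 EGR, NR4A, IER and KLF genes was called in any of the 3 comparisons, in which 0.52% to 1.04% of all tested genes were called in each direction, so a count of 0 is near the background. Fos had a ratio of 0.882 (0.834 to 0.934) in KO cuprizone against WT cuprizone, 0.989 (0.935 to 1.05) in Het cuprizone against WT cuprizone and 0.997 (0.942 to 1.05) in WT cuprizone against WT control. For Jun these ratios were 0.883 (0.839 to 0.930), 0.965 (0.917 to 1.02) and 1.17 (1.11 to 1.24) in the same comparisons. Btg2 had ratios of 0.916 (0.856 to 0.979), 0.934 (0.872 to 0.9996) and 1.23 (1.15 to 1.32), and Sgk1 had 0.954 (0.835 to 1.09), 1.20 (1.06 to 1.37) and 0.973 (0.852 to 1.11). Klf2 was less even, with 0.834 (0.752 to 0.924) in KO cuprizone against WT cuprizone, 1.51 (1.38 to 1.66) in Het cuprizone against WT cuprizone and 0.774 (0.704 to 0.851) in WT cuprizone against WT control. Some of these intervals exclude 1, but they hold no spread between animals. All 3 comparisons share the WT cuprizone library, so a high or low value in that library alone would move the ratios of all 3. Their values are therefore given side by side and not set against each other.

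In KO cuprizone against WT cuprizone, 14 of 2232 genes were higher (0.627%) and 20 lower (0.896%). Of 13 cytokines and chemokines tested 1 was higher and 4 were lower, with a median log2 ratio of -0.27. Of 3 MHC class II genes tested 1 was lower, with a median log2 ratio of -0.24, and of 10 MHC class I genes 1, with a median of -0.25. Ccl12, a monocyte chemokine, had 216 CPM in KO cuprizone and 908 CPM in WT cuprizone, and was 4.21-fold lower (3.32 to 5.37). In cluster 06 it moved the same way, with a ratio of 0.446 (0.347 to 0.570). Cd74 had 56.9 CPM in KO cuprizone and 379 CPM in WT cuprizone, and was 6.66-fold lower (4.28 to 10.8). One cell held 34.1% of the WT cuprizone UMIs of Cd74, and the ratio was 0.208 once the cell with most UMIs was dropped from either library. Tnf had 102 CPM in KO cuprizone and 288 CPM in WT cuprizone (2.82-fold lower, 1.95 to 4.14), and Ifitm3 had 45.1 CPM in KO cuprizone and 182 CPM in WT cuprizone (4.04-fold lower, 2.38 to 7.16). Cxcl10 was 2.89-fold lower (1.86 to 4.59), but 70.0% of its WT cuprizone UMIs were in 1 cell, and the ratio without the top cells was 0.616. Among higher genes the chemokine Ccl2 had 235 CPM in KO cuprizone and 64.6 CPM in WT cuprizone, 3.63-fold higher (2.27 to 6.06), with 36.4% of the KO cuprizone UMIs in 1 cell. Gas6, a ligand that bridges dying cells to phagocytes, was 2.12-fold higher (1.45 to 3.17), while its ratio in cluster 06 was 1.19 (0.888 to 1.60). Apoe had 5021 CPM in KO cuprizone and 5596 CPM in WT cuprizone, a ratio of 0.897 (0.843 to 0.955).

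**Figure D5:**
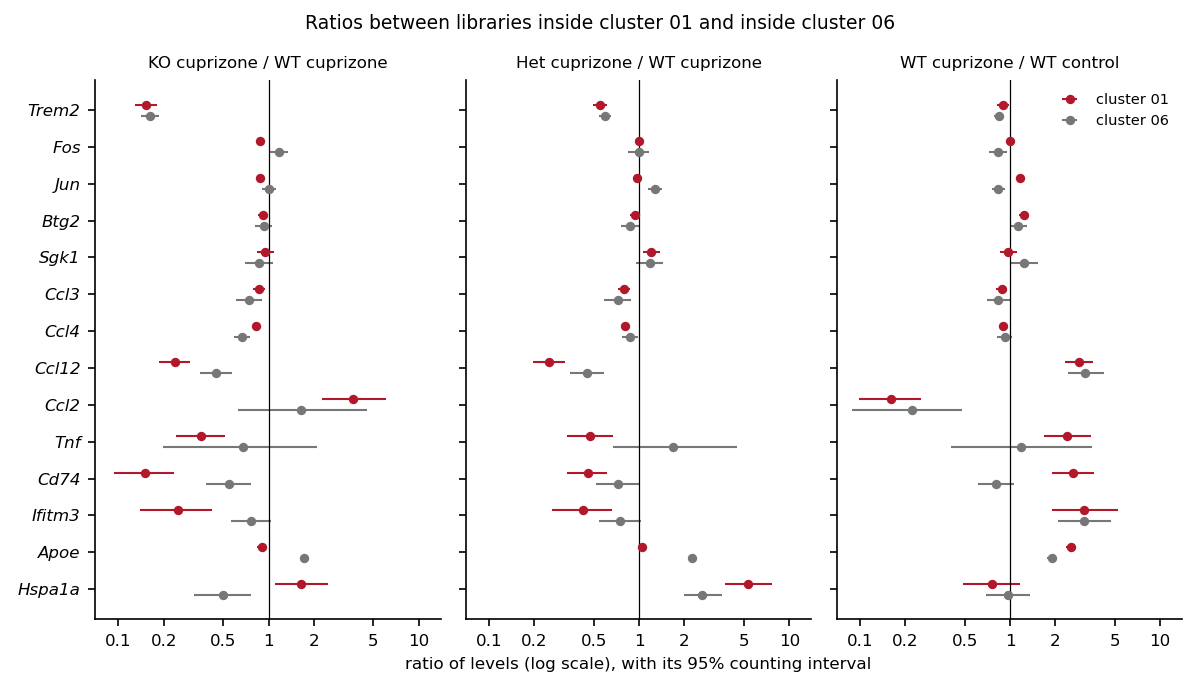
Ratios between libraries (horizontal axes, log scale) with exact conditional binomial 95% intervals for 14 genes, in cluster 01 (red) and cluster 06 (grey), for KO cuprizone over WT cuprizone, Het cuprizone over WT cuprizone and WT cuprizone over WT control. Trem2 is low in KO cuprizone in both clusters, at 0.153 in cluster 01 and 0.163 in cluster 06, while Fos, Jun, Btg2 and Sgk1 of cluster 01 lie between 0.88 and 1.23, and Ccl2 is not drawn for Het cuprizone, where it had under 50 UMIs.

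In Het cuprizone against WT cuprizone, 11 of 2117 genes were higher (0.52%) and 21 lower (0.992%). Hspa1a had 589 CPM in Het cuprizone and 112 CPM in WT cuprizone, 5.28-fold higher (3.73 to 7.65). It was higher in cluster 06 as well, by 2.63-fold (1.97 to 3.55), which is the same direction as in cluster 01. Spry1 was 3.70-fold higher (1.95 to 7.63) on 51 and 12 UMIs, and was the only feedback gene called in any of the 3 comparisons. Ccl12 had 228 CPM in Het cuprizone and 908 CPM in WT cuprizone, 3.98-fold lower (3.14 to 5.10), and Cd74 was 2.21-fold lower (1.63 to 3.01). Arrdc3 had 159 CPM in Het cuprizone and 332 CPM in WT cuprizone, 2.09-fold lower (1.52 to 2.90). Tnf was 2.12-fold lower (1.504 to 3.02) and Ifitm3 2.37-fold lower (1.51 to 3.798). Cxcl10 was 5.74-fold lower (3.20 to 11.0) and had a ratio of 0.458 without the top cells.

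In WT cuprizone against WT control, 15 of 2118 genes were higher (0.708%) and 22 lower (1.04%), of which 8 lower ones were gene models without a name. Higher genes were thus 40.5% of calls, and 51.4% under TMM scaling, with 18 higher and 17 lower. Apoe had 5596 CPM in WT cuprizone and 2197 CPM in WT control, 2.55-fold higher (2.35 to 2.76). One cell held 28.8% of the WT cuprizone UMIs, and without the top cells the ratio was 1.96, under the 2-fold limit. In cluster 06 the ratio of Apoe was 1.90 (1.77 to 2.04). Ccl12 had 908 CPM in WT cuprizone and 315 CPM in WT control, 2.88-fold higher (2.33 to 3.58), and its ratio in cluster 06 was 3.17 (2.42 to 4.20). Ifitm3 was 3.12-fold higher (1.90 to 5.27), with 3.10 (2.09 to 4.69) in cluster 06. Tnf was 2.41-fold higher (1.69 to 3.49), Arrdc3 2.14-fold (1.56 to 2.98) and Ccrl2, an atypical chemokine receptor, 2.02-fold (1.42 to 2.90). Cd74 was 2.62-fold higher (1.90 to 3.64), and 1.92 without the top cells. Cxcl10 had 70 UMIs in WT cuprizone and 3 UMIs in WT control, a ratio of 27.0 (8.86 to 134), and 12.2 without the top cells. Of the lower genes, Ccl2 had 64.6 CPM in WT cuprizone and 399 CPM in WT control, 6.17-fold lower (3.93 to 10.1), with 52.9% of the WT control UMIs in 1 cell. The cytokine Il1b had 144 CPM in WT cuprizone and 292 CPM in WT control, 2.03-fold lower (1.44 to 2.90), and a ratio of 0.548 without the top cells.

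Several of these values rest on a few cells. In WT cuprizone the same cell of cluster 01 held the most Apoe (548 of 1905 UMIs) and the most Cd74 (44 of 129 UMIs). Another held the most Ccl12 (78 of 309 UMIs) and the most Cxcl10 (49 of 70 UMIs). A further cell of that library held 24 of the 98 UMIs of Tnf, and the library enters all 3 Tnf ratios between libraries. In WT control 1 cell held the most Ccl2 (83 of 157 UMIs), Ccl7 (40 of 49 UMIs) and Ccl12 (45 of 124 UMIs). The Ccl2 and Ccl7 values of that library are therefore largely those of 1 cell. The same was not true of the immediate-early genes, for which the top cell held 2.82% of Fos, 2.49% of Jun and 3.01% of Btg2 UMIs in WT cuprizone and 3.36% of Fos, 3.57% of Jun and 3.34% of Btg2 UMIs in WT control.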

How the data were processed

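The deposited values are whole-number UMI counts. The submitters' processing notes name Cell Ranger 2.1.1 and build mm10 as what the authors used. Notes with the files say that low-quality cells had been taken out. Clusters come from the authors' annotation, and the counts were used as deposited. The sources used here give neither the gene annotation, nor the clustering settings, nor the rule for genes marked as analysed, nor the authors' handling of doublets. No doublet caller was run.

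Cells were matched 1 to 1 without replacement within a library on log10 UMIs (nearest total, caliper 0.05). Clusters 03 and 07 were kept out of the matched set, a choice made in an earlier look at their leading genes. Sums of UMIs were scaled to 1000000 UMIs of the set (CPM). Ratios have exact conditional binomial 95% intervals (scipy 1.17.1). A fold against 0 UMIs would use a floor of 3 UMIs over the set, and none printed here needed it. Library totals were 7849741 UMIs in KO cuprizone, 7465251 in Het cuprizone, 7006408 in WT cuprizone and 4747730 in WT control. The calculations were tested on simulated data (Python 3.11.15, numpy 2.4.6, pandas 2.3.3). Those data held counting error alone, so they say nothing of spread between cells or animals. TMM factors came from edgeR 4.0.16 in R 4.3.3.

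Named genes were Sgk1, Jun, Btg2 and Trem2, the 12 higher and 12 lower called genes with at least 200 UMIs whose interval lies farthest from 1, up to 8 per direction with at least 100 UMIs in each library comparison, and from each list up to 4 members with the most UMIs and 3 with the largest ratios. A few genes named for a missing call or a shared cell, and the motifs and sites, were chosen after values were seen. Unnamed gene models and pseudogenes count among the calls, as 15 higher and 5 lower genes of cluster 01. The cluster, its lists and these rules were chosen with earlier results of these data known. The genes most like Jun were ranked by log2(CPM + 10) among genes with at least 200 UMIs. Alternatives changed the matching, comparison cells, count filter, scaling, size rule, single cells and libraries. Some genes are not reported here.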

Additional observations from a re-analysis of the deposited data

How the results depend on the processing

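For cluster 01 against matched cells, the 418 higher and 92 lower genes became 689 and 384 without depth matching, of which 215 and 63 were shared with the matched comparison, and 149 and 23 at 2-fold. Against cluster 05 alone 85 were higher and 31 lower, from fewer cells and fewer genes tested. The lower genes numbered 194 with thinned cells, 175 against all 7 other clusters and 228 with TMM scaling. Leaving out each library in turn gave 374 to 477 higher and 98 to 151 lower genes, with the highest count of lower genes without the WT control library. In these runs only the remaining libraries had to move the same way. That rule is less strict by construction and can admit more genes. The direction of called genes turned against cluster 05 alone for Apoc1 (log2 ratio 0.84), Apoe (0.18), Cd63 (0.15), Cd74 (0.41), Cox6a2 (1.25), Gpnmb (0.0285), Ifitm3 (0.15), Spp1 (1.12), Clk4 (-0.0785), Dnajb4 (-0.13), Klf2 (-0.25), Mir142hg (-0.56) and Sqstm1 (-0.0029), and without matching for Dusp2 (-0.0424) and Mcl1 (-0.25). Apart from these 15 values, no called gene among the 230 named turned under any alternative run. Of the 15, Apoc1, Cox6a2, Gpnmb, Spp1 and Mir142hg were among the genes under the filter of 50 UMIs against cluster 05 alone. Their values there show no direction. The cause of these changes was not tested.

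Counts between libraries depended on the minimum and the fold. For KO cuprizone against WT cuprizone, higher and lower genes numbered 80 and 75 at 20 UMIs, 110 and 138 without a filter and 56 and 62 at 1.5-fold, with 11 lower in thinned cells. For Het cuprizone against WT cuprizone they numbered 56 and 68, 100 and 110, and 47 and 56 at the same settings, 6 and 8 in thinned cells, with 13 lower without the top cells. For WT cuprizone against WT control they numbered 71 and 75, 137 and 123, and 43 and 60, and 5 and 13 in thinned cells. A lower minimum admits more genes and thinning removes UMIs by construction. No named gene called between libraries turned under the alternatives run. No paired analysis was possible because each condition has 1 library. The depth of cluster 01 limits these counts to genes with at least 50 UMIs over both sets.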
